A study of Homo sapiens with 4 samples.

Results

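The genes described here are 9 receptors for growth and survival factors of the neural crest, chosen by name: the neurotrophin receptors NTRK2, NTRK3 and NGFR, the GDNF family receptors RET, GFRA2 and GFRA3, the receptor tyrosine kinase ALK, and ERBB2 and ERBB3 of the EGF receptor family. They are 9 of the 60651 gene IDs in the count table, and each was followed across 4 treatments as a level and as a share of cells. The cells were CHP134, an established human neuroblastoma line with amplified MYCN that was derived from an adrenal tumour. Before single-cell sequencing they were kept for 24 h in 13-cis retinoic acid (13cRA, isotretinoin, a differentiating agent) at 5 µM together with doxazosin (an alpha-1 adrenergic receptor blocker) at 10 µM, called the combination here, in 13cRA alone, in doxazosin alone, or in the vehicle DMSO at 0.04%. Each treatment is 1 sample, all on 1 nanowell chip, so treatment and library cannot be told apart and no difference below carries a test.

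Neurotrophin receptors bind nerve growth factor, BDNF and neurotrophin-3 and carry survival and differentiation signals in sympathetic neurons, the lineage from which neuroblastoma arises. RET signals for the GDNF family of ligands only together with a GFRA co-receptor, which is anchored in the membrane and gives the complex its ligand preference. ALK is a receptor kinase of the developing sympathetic lineage and is mutated in part of neuroblastomas, and ERBB3, which has little kinase activity of its own, signals with ERBB2 in response to neuregulins and is best known in Schwann cells and their precursors.

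After cells with few genes or many mitochondrial reads were left out, 287 combination, 318 13cRA, 239 doxazosin and 353 DMSO cells remained. Their summed counts ranged from 22636509 in the 13cRA library to 72192743 in the combination library. A median 13cRA cell had 59200.5 counts against 122615 in a median DMSO cell, so shares of cells were taken after every cell was thinned at random to 34000 counts. That left out 17, 69, 4 and 25 shallower cells of the combination, 13cRA, doxazosin and DMSO libraries. Of 12 markers of noradrenergic neuroblasts, 8 reached 5 CPM in the combination library and 9 in each of the others. The transcription factor GATA3 stood at 294 CPM (counts scaled to a library total of 1000000) in the combination library, 465 in the 13cRA library, 315 in the doxazosin library and 313 in the DMSO library, and MYCN at 760 CPM in DMSO cells. Other factors of the list were lower with 13cRA: ISL1 was at 26.0 CPM in the combination, 11.9 in 13cRA, 49.3 in doxazosin and 54.4 in DMSO cells, and GATA2 at 2.92 in the combination, 6.58 in 13cRA, 11.1 in doxazosin and 13.4 in DMSO cells. The catecholamine enzymes TH and DBH, also on that marker list, were at or below 0.18 CPM in every library. Of markers of other cells, 8 for Schwann cells summed to 2.05 CPM in the combination, 6.14 in 13cRA, 1.99 in doxazosin and 1.45 in DMSO cells. The 8 for fibroblasts summed to 77.4 CPM in the combination, 78.2 in 13cRA, 87.4 in doxazosin and 74.1 in DMSO cells, mostly THY1, and COL3A1 was at 10.3 CPM in 13cRA against 0.394 in DMSO cells. Of the endothelial list CLDN5 was at 11.1 CPM in the combination, 19.7 in 13cRA, 0.715 in doxazosin and 0.540 in DMSO cells. The part of these markers in the receptor differences was not tested. The 7 leukocyte markers, genes this line should lack, each had a count in at most 2.55% of thinned cells of any library.

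All 9 genes had at least 1 count in each library, but only GFRA2 and NTRK3 reached 5 CPM in all 4. Ordered by CPM per kilobase of exon in the DMSO library, GFRA2 led with 22.9, followed by NTRK3 with 0.918, ERBB2 with 0.274, GFRA3 with 0.214, ALK with 0.0959, RET with 0.0571, NGFR with 0.0500, NTRK2 with 0.0387 and ERBB3 with 0.0184. GFRA2 was first and NTRK3 second in each of the 4 libraries, while the order of the other 7 differed between libraries. In the 13cRA library ALK with 1.06, ERBB2 with 0.937 and ERBB3 with 0.723 CPM per kilobase came next after NTRK3, whose level there was 1.09. Within the 13cRA library the lowest of these levels, that of GFRA3, rests on 1 count. There 3 counts, the number a count of 0 allows, correspond to 0.133 CPM. In thinned cells, 10.4% of combination, 18.1% of 13cRA, 10.6% of doxazosin and 12.5% of DMSO cells had no count of any of the 9 genes. No thinned cell had counts of more than 4 of them.

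**Figure D1:**
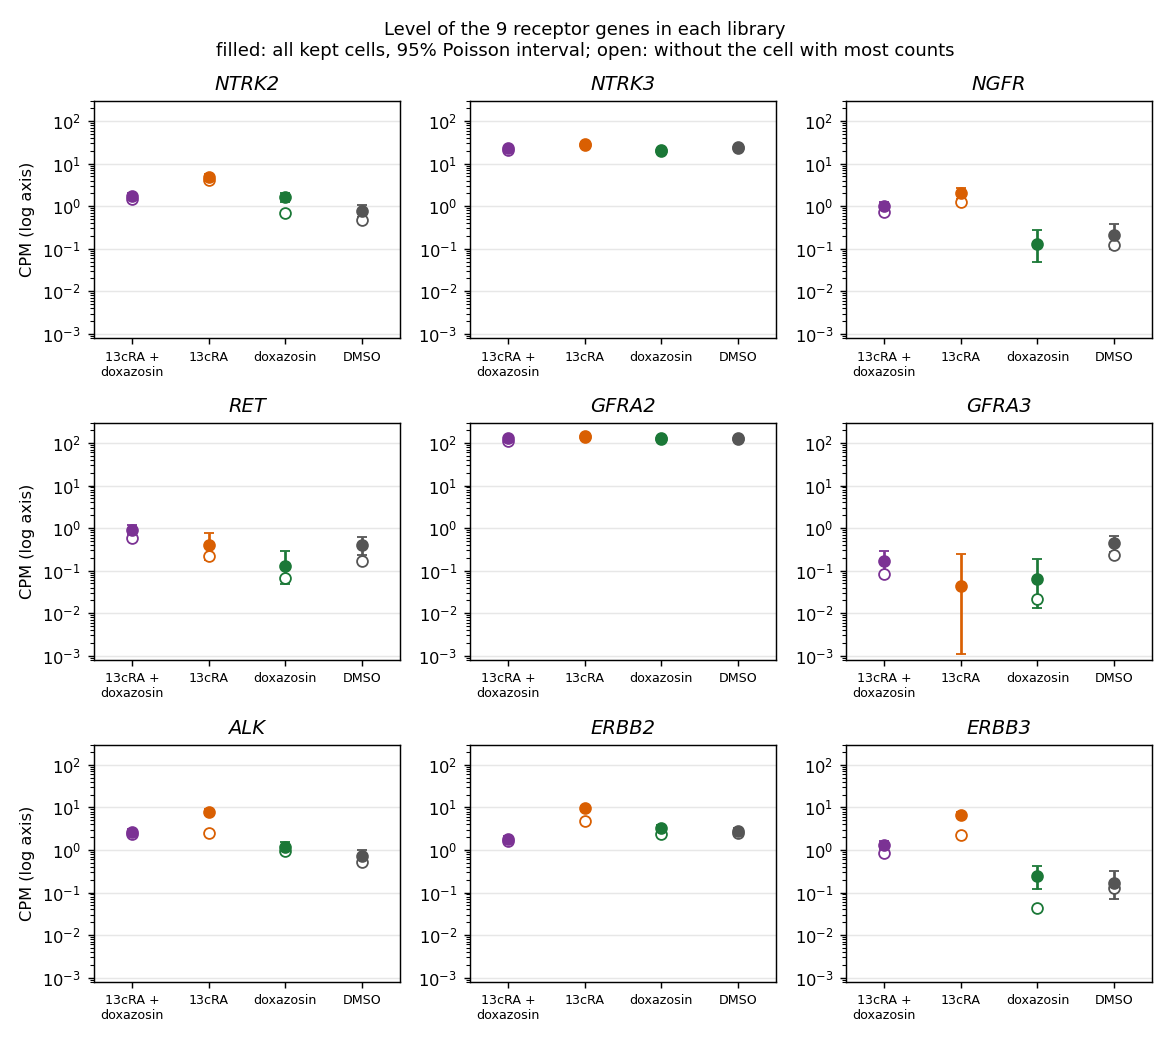
Level of each receptor gene in CPM on a log axis, for the combination (13cRA + doxazosin), 13cRA, doxazosin and DMSO libraries. Filled points are all kept cells with exact 95% Poisson intervals and open points leave out the cell with most counts (not drawn where that leaves 0, NGFR in doxazosin and GFRA3 in 13cRA); GFRA2 and NTRK3 lie flat above the others, and the open points of ALK, ERBB2 and ERBB3 lie well below the filled ones in the 13cRA library.

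NTRK3 encodes TrkC, the receptor of neurotrophin-3 (ENSG00000140538.16; chromosome 15, 87859751 to 88256768, minus strand; these and all gene positions are from GENCODE 29 on GRCh38). It was the main neurotrophin receptor among the 3, with 1689 counts in combination cells, 662 in 13cRA cells, 963 in doxazosin cells and 1183 in DMSO cells. Its level was 23.4 CPM (exact Poisson interval 22.3 to 24.5) in the combination library, 29.2 (27.1 to 31.6) in the 13cRA library, 20.9 (19.6 to 22.2) in the doxazosin library and 24.6 (23.2 to 26.0) in the DMSO library. The order was therefore 13cRA, DMSO, combination, doxazosin, and the intervals of DMSO and combination overlapped. These intervals, and all others here, cover counting error only, and PCR copies of a molecule were counted as separate reads.

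The share of NTRK3 cells did not follow that order. After thinning, 24.1% of combination cells (exact binomial interval 19.1 to 29.6%) and 22.9% of 13cRA cells (17.8 to 28.6%) had an NTRK3 count, against 31.5% of doxazosin cells (25.6 to 37.8%) and 30.5% of DMSO cells (25.5 to 35.8%). At full depth the share was 35.5% in combination, 26.1% in 13cRA, 44.8% in doxazosin and 40.8% in DMSO cells. NTRK3 thus had slightly fewer positive cells in the libraries with 13cRA, with overlapping intervals, and no lower summed level in the 13cRA library. The difference between 13cRA and DMSO cells was 0.24 on the log2 scale (log2((CPM + 1)/(CPM + 1)), used for every difference here) and turned to -0.08 with TMM factors, a scaling that moves the median over all genes in this comparison from 0.0016 to -0.34. Among cells of 34000 to 120000 counts the NTRK3 difference of the combination from DMSO was -1.23, against -0.07 over all kept cells, from 38 combination cells and 141 DMSO cells.

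NTRK2 encodes TrkB, the BDNF receptor (ENSG00000148053.17; chromosome 9, 84668551 to 85027070, plus strand). The counts were 127 in the combination library, 109 in the 13cRA library, 75 in the doxazosin library and 38 in the DMSO library. The level was 1.76 CPM (1.47 to 2.09) in the combination, 4.82 (3.95 to 5.81) in 13cRA, 1.62 (1.28 to 2.04) in doxazosin and 0.789 (0.558 to 1.08) in DMSO cells, with 13cRA highest, DMSO lowest and the other 2 libraries overlapping. In the doxazosin library 1 cell held 43 of the 75 counts, and without it the level was 0.702 CPM. The ratio of 13cRA to DMSO was 6.10 (exact interval 4.18 to 9.08) and the log2 difference was 1.70, or 1.80 without the top cell of each library. For the combination over DMSO the ratio was 2.23 (1.54 to 3.29) and the log2 difference 0.63.

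The share of NTRK2 cells was about equal in both libraries that held 13cRA, unlike the level. A count was present in 6.30% (3.71 to 9.89%) of combination cells and 6.43% (3.72 to 10.2%) of 13cRA cells, against 1.28% (0.264 to 3.69%) of doxazosin cells and 2.13% (0.862 to 4.35%) of DMSO cells. Since so few counts are at stake, the share expected over all possible thinnings was also taken: 4.49, 6.40, 1.88 and 1.75% in the combination, 13cRA, doxazosin and DMSO libraries. A second random thinning gave 3.33% of combination, 5.62% of 13cRA, 1.70% of doxazosin and 1.52% of DMSO cells. At full depth 10.1% of combination, 8.18% of 13cRA, 4.60% of doxazosin and 3.40% of DMSO cells had a count. All 4 measures placed both 13cRA-treated libraries above both others, while the intervals of both reached below the upper limit of DMSO.

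NGFR, the p75 receptor that binds all neurotrophins (ENSG00000064300.9; chromosome 17, 49495293 to 49515017, plus strand), was scarce. It had 73 counts in 10 of 287 combination cells, 45 counts in 11 of 318 13cRA cells, 6 counts in 1 of 239 doxazosin cells and 10 counts in 5 of 353 DMSO cells. The level was 1.01 CPM in the combination, 1.99 in 13cRA, 0.130 in doxazosin and 0.208 in DMSO cells, and 2.81% of thinned 13cRA cells against 0.305% of thinned DMSO cells had a count. From these few cells the ratio to DMSO was 4.87 (2.50 to 10.6) for the combination and 9.57 (4.76 to 21.3) for 13cRA. The DMSO share lies within the range of the leukocyte markers. NTRK2 and NGFR shared 1 thinned cell in all, in the 13cRA library.

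Promoter windows were read for the members from RefSeq on GRCh38.p14, 250 bases before to 50 after each listed start, and 6 of the 9 members matched. The first listed windows of NTRK2 and NTRK3 are shown because these receptors bind related ligands and differ in both level and how it varied over the libraries; capitals mark GC boxes (GGGCGG on either strand). NTRK2 lies at chr9:84669056-84669355 on the plus strand and NTRK3 at chr15:88256690-88256989 on the minus strand, each written 5′ to 3′ along its own strand.
NTRK2: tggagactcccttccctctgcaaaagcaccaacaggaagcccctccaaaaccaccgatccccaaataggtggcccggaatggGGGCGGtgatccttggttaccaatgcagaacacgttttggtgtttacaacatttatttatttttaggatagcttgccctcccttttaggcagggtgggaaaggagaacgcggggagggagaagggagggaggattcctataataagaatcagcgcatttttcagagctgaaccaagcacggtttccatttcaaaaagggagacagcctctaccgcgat
NTRK3: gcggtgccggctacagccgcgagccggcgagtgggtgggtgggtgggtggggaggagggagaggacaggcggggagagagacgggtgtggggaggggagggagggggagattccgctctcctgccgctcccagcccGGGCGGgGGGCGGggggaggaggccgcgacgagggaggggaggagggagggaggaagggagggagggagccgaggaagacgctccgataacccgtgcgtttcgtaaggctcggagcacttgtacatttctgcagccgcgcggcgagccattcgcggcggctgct
The NTRK2 window has 50.0% G and C and 1 GC box, and the NTRK3 window 72.0% and 2 GC boxes. A GC box is found in 45.0% of the 35116 promoter windows in the table. The forms AGGTCA and GGGTCA of the retinoic acid receptor half-site, read on either strand, occur in 13.8 and 14.1% of those windows. They occur in none of the 11 windows of the 6 matched members. That says only that these letters are not in these windows. Other forms of the half-site were not searched.

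GFRA2 encodes the co-receptor through which RET binds neurturin (ENSG00000168546.11; chromosome 8, 21690403 to 21812357, minus strand) and had the highest level of the 9 genes. Its counts were 9242 in combination cells, 3299 in 13cRA cells, 6012 in doxazosin cells and 6316 in DMSO cells. The level was 128 CPM (125 to 131) in the combination, 146 (141 to 151) in 13cRA, 130.2 (127 to 134) in doxazosin and 131 (128 to 134) in DMSO cells. The 13cRA library was thus first, and the intervals of the other 3 overlapped. A single combination cell with 18592 detected genes held 1541 of that library's counts, and without it the combination level was 109 CPM. The log2 difference from DMSO was then -0.22 in place of -0.03. In 13cRA against DMSO the difference was 0.15, and -0.18 with TMM factors.

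Most cells of each library had a GFRA2 count. The thinned shares were 80.7% (75.5 to 85.3%) of combination cells, 73.5% (67.6 to 78.9%) of 13cRA cells, 84.3% (79.0 to 88.7%) of doxazosin cells and 82.0% (77.4 to 86.0%) of DMSO cells. The 13cRA share was the lowest although the summed level of that library was not. In that library thinned cells also had fewer detected genes, a median of 3888 against 4686.5 in DMSO cells. The part of this in the GFRA2 share was not tested. In positive cells the median was 144 CPM in 13cRA and 120.1 CPM in DMSO cells.

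RET, the signalling kinase of the GDNF receptor complex (ENSG00000165731.20; chromosome 10, 43077027 to 43130351, plus strand), was close to absent. Counts numbered 66 in 12 combination cells, 9 in 4 13cRA cells, 6 in 2 doxazosin cells and 19 in 6 DMSO cells. The level was 0.914 CPM in the combination, 0.398 in 13cRA, 0.130 in doxazosin and 0.394 in DMSO cells. After thinning 1.11% of combination, 0.803% of 13cRA and 1.22% of DMSO cells had a count, and 0 of 235 doxazosin cells did (upper limit 1.56%). The leukocyte marker PTPRC had a count in 0.370% of combination, 0.803% of 13cRA, 2.55% of doxazosin and 0.610% of DMSO cells, below the RET share in the combination and DMSO, equal to it in 13cRA and above it in doxazosin. Nearly all GFRA2 cells were without a detectable RET transcript: 1 of 218 in the combination, 2 of 183 in 13cRA, 0 of 198 in doxazosin and 3 of 269 in DMSO also had a RET count at this depth.

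GFRA3, the co-receptor for artemin (ENSG00000146013.11; chromosome 5, 138252379 to 138274671, minus strand), was also scarce, with 12 counts in the combination, 1 in 13cRA, 3 in doxazosin and 21 in DMSO cells. Of thinned cells 0.741% in the combination, 0 in 13cRA, 0.426% in doxazosin and 0.915% in DMSO had a count, and 0 of 249 13cRA cells allows up to 1.47%. Among the cells that the filter left out, 1 combination cell held 190 GFRA3 counts, and with no cell filter the combination difference from DMSO turned from -0.30 to 1.35. GFRA1, the GDNF co-receptor, stood beside GFRA2 at 76.6 CPM in the combination, 107 in 13cRA, 86.5 in doxazosin and 75.3 in DMSO cells. A GFRA1 count was found in 69.7% of GFRA2 cells and 59.6% of the remaining combination cells. The same 2 shares were 63.4 and 59.1% in 13cRA, 67.2 and 70.3% in doxazosin and 66.9 and 62.7% in DMSO cells. GFRA4, the persephin co-receptor, had no count in any library. NCAM1, which can serve GDNF together with a GFRA protein, was at 54.5, 83.9, 69.6 and 81.9 CPM in the combination, 13cRA, doxazosin and DMSO libraries. Co-receptors of the family were thus present in most cells and the RET kinase was not detected in most.

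**Figure D2:**
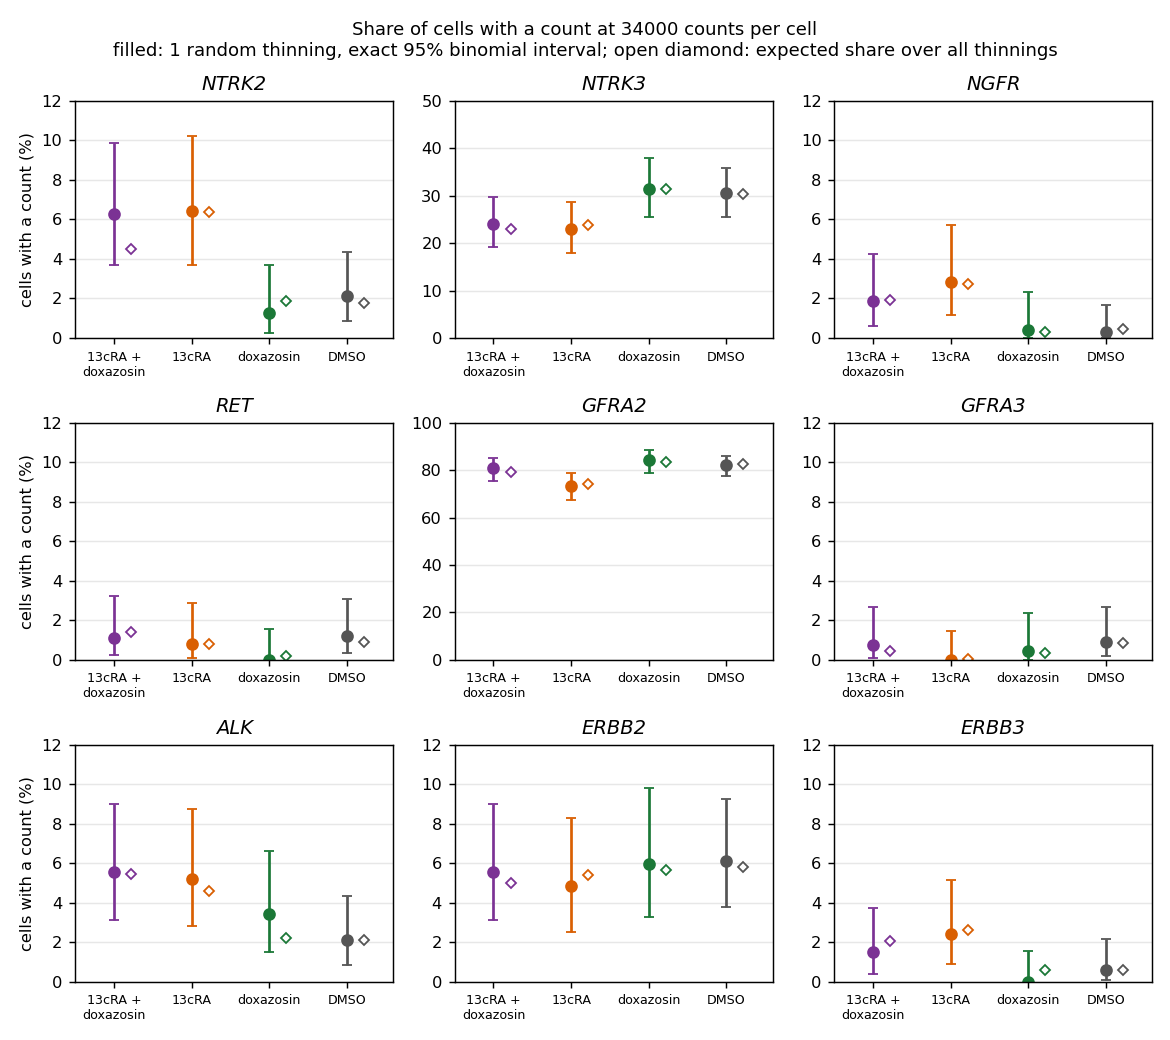
Share of cells with a count of each receptor gene at 34000 counts per cell, in percent, by library. Filled points are 1 random thinning with exact 95% binomial intervals and open diamonds the share expected over all thinnings; the vertical axis runs to 100% for GFRA2, 50% for NTRK3 and 12% for the others. NTRK2 and ALK have higher expected shares in both libraries with 13cRA, ERBB2 is level near 5 to 6%, and RET and GFRA3 stay below 2%.

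ALK (ENSG00000171094.18; chromosome 2, 29192774 to 29921566, minus strand) had 195 counts in the combination library, 177 in 13cRA, 55 in doxazosin and 34 in DMSO. That is 2.7 CPM (2.34 to 3.11) in the combination, 7.82 (6.71 to 9.06) in 13cRA, 1.19 (0.897 to 1.55) in doxazosin and 0.706 (0.489 to 0.986) in DMSO cells. The intervals of 13cRA and of the combination do not touch those of any other library, and doxazosin and DMSO overlap. However, 1 cell of the 13cRA library carried 120 of the 177 ALK counts. Without that cell the 13cRA level was 2.54 CPM, close to the 2.38 CPM of the combination without its own top cell. The log2 difference of 13cRA from DMSO was 2.37, then 1.22 without the top cell of each library, and 0.29 among cells of 34000 to 120000 counts.

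For the combination the ALK difference from DMSO was 1.12, and 1.15 without the top cells. Its counts were spread over 30 cells, of which the highest held 24. The thinned shares were 5.56% (3.14 to 9.0%) of combination cells, 5.22% (2.81 to 8.76%) of 13cRA cells, 3.40% (1.48 to 6.60%) of doxazosin cells and 2.13% (0.862 to 4.35%) of DMSO cells. Expected over all thinnings they were 5.46% in the combination, 4.59% in 13cRA, 2.21% in doxazosin and 2.10% in DMSO cells. ALK cells were thus more frequent in both libraries with 13cRA by either measure, with overlapping intervals. At full depth 10.5% of combination, 5.66% of 13cRA, 3.77% of doxazosin and 4.82% of DMSO cells had an ALK count, so 13cRA and DMSO lay close together. LTK, the closest relative of ALK, had 2.98, 0.884, 0.433 and 0.581 CPM in the combination, 13cRA, doxazosin and DMSO libraries, and 1 cell held 73.0% of the combination counts.

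The ALK window is shown because ALK, with NTRK2, had a higher share of positive thinned cells in both 13cRA-treated libraries. It lies at chr2:29921537-29921836 on the minus strand (GRCh38.p14, RefSeq), is written 5′ to 3′ along that strand, and has its GC boxes in capitals.
ALK: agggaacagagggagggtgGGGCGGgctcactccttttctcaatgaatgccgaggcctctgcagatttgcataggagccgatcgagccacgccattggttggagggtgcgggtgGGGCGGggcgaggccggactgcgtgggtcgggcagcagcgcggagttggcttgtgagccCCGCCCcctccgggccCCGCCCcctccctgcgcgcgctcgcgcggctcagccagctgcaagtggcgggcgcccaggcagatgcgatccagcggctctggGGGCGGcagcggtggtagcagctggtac
The window has 71.0% G and C and 5 GC boxes, against 1 in the NTRK2 window shown before. The E-box CAGCTG, which reads the same on both strands and is found in 17.9% of all promoter windows, occurs at 2 places in the ALK window and not in those shown for NTRK2 and NTRK3.

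ERBB2, the ligandless partner of the family (ENSG00000141736.14; chromosome 17, 39687914 to 39730426, plus strand), had 129 counts in the combination library, 219 in 13cRA, 150 in doxazosin and 136 in DMSO. The level was 1.79 CPM (1.49 to 2.12) in the combination, 9.67 (8.44 to 11.0) in 13cRA, 3.25 (2.75 to 3.81) in doxazosin and 2.82 (2.37 to 3.34) in DMSO cells, with 13cRA highest, doxazosin and DMSO overlapping and the combination lowest. In the 13cRA library 1 cell held 112 counts and a second 40. The log2 difference of 13cRA from DMSO was 1.48, then 0.72 without the top cell of each library, and -0.65 among cells of 34000 to 120000 counts. For the combination it was -0.46, a ratio of 0.633 (0.493 to 0.811). The share of ERBB2 cells did not follow the summed level: it was 5.56% in combination, 4.82% in 13cRA, 5.96% in doxazosin and 6.10% in DMSO cells, and all 4 intervals overlapped.

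ERBB3 (ENSG00000065361.16; chromosome 12, 56076799 to 56103505, plus strand) had 94 counts in the combination library, 148 in 13cRA, 11 in doxazosin and 8 in DMSO. The level was 1.30 CPM (1.05 to 1.59) in the combination, 6.54 (5.53 to 7.68) in 13cRA, 0.238 (0.119 to 0.426) in doxazosin and 0.166 (0.0717 to 0.327) in DMSO cells, with doxazosin and DMSO overlapping. Of the 13cRA counts 65.5% came from 1 cell, and without it the level was 2.27 CPM. The 13cRA to DMSO ratio of 39.4 (19.5 to 92.9) thus rests on that cell in large part, and the log2 difference of 2.69 became 1.54 without the top cells and 0.41 among cells of 34000 to 120000 counts. For the combination the difference from DMSO was 0.98, and 0.70 without the top cells. A count was present in 13 of 287 combination cells, 15 of 318 13cRA cells, 3 of 239 doxazosin cells and 5 of 353 DMSO cells. After thinning 1.48% of combination, 2.41% of 13cRA, 0 of 235 doxazosin (upper limit 1.56%) and 0.610% of DMSO cells had one. ERBB3 is also a Schwann lineage gene. Of 8 other Schwann markers none reached 5 CPM, and SOX10 was at 0.15 CPM or less in each library. ERBB2 and ERBB3 were found together in 0 thinned cells of any library. At full depth they were together in 5 of 287 combination, 2 of 318 13cRA, 1 of 239 doxazosin and 0 of 353 DMSO cells. The combination cells with both include those with 9482, 13778, 14436 and 18592 detected genes. These are the 4 kept cells over 9000 genes, all in the combination library.

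The 13cRA cells with most ALK, ERBB2 and ERBB3 were 3 different cells. They had 199991, 198411 and 142252 counts and 3730, 3387 and 4251 detected genes, and each carried GATA3 and MYCN, with 821, 142 and 370 MYCN counts. GATA3 had 44 counts in the ALK cell, 55 in the ERBB2 cell and 112 in the ERBB3 cell, and SOX10 had 0 in all 3. Single-cell dominance of this size was uncommon: of 1747 genes at 5 to 10 CPM in the 13cRA library, 6.07% had 50% or more of their counts in 1 cell, against 1.30% of 1612 such genes in the DMSO library, and the median gene had 15.9% in 13cRA and 8.53% in DMSO cells.

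**Figure D3:**
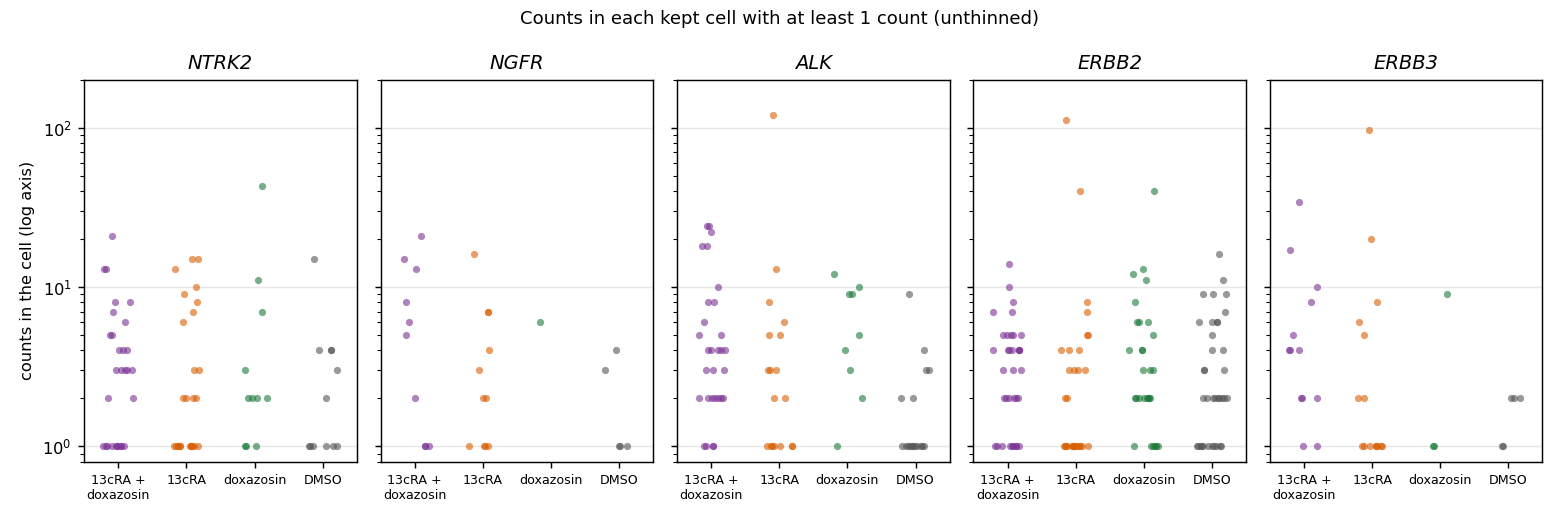
Counts of NTRK2, NGFR, ALK, ERBB2 and ERBB3 in each kept cell with at least 1 count, on a log axis, by library, unthinned; points are cells, spread sideways at random. In the 13cRA library 1 cell stands far above the rest for ALK (120 counts), ERBB2 (112) and ERBB3 (97), while NTRK2 has no such cell there.

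EGFR, the founding member of that receptor family, had a lower summed level in both libraries with 13cRA. It had 3.20 CPM in the combination, 3.23 in 13cRA, 8.27 in doxazosin and 7.25 in DMSO cells. Its log2 differences were -0.97 for the combination and -0.96 for 13cRA against DMSO, and -1.14 for the combination against doxazosin. After thinning 7.78% of combination, 5.62% of 13cRA, 8.09% of doxazosin and 11.9% of DMSO cells had an EGFR count. The shares expected over all thinnings were 6.48, 4.99, 9.77 and 11.2% in the same order. The 3 highest cells held 33.8, 30.1, 37.2 and 23.8% of the EGFR counts of these libraries. The neuregulin receptor ERBB4 was low throughout, at 0.997 CPM in the combination, 1.41 in 13cRA, 2.12 in doxazosin and 1.39 in DMSO cells.

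Setting all 9 genes against the whole table, a gene was read in a comparison when it reached 5 CPM in at least 1 of the 2 libraries, and called when its log2 difference was at least 1. In 13cRA against DMSO 5 of the 9 could be read and 3 were called higher (ALK, ERBB2 and ERBB3), where 7.57% of 10214 genes were higher by that rule and 3.74% lower. These 3 reached 5 CPM through the 13cRA library alone, so they had to be higher there, and each was under 5 CPM without its top cell. Of all genes called higher in this comparison, 54.2% were still called with the top cell of each gene left out. With no minimum level NTRK2 and NGFR passed as well. Over all 9 genes, with those under 5 CPM included, 8 differences were positive and the median was 1.31. With TMM or DESeq2 factors, or among cells of 34000 to 120000 counts, 5 of the 9 were positive. The median over the genes read, all at 5 CPM or more in a library, was 0.0016.

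In the combination against DMSO only NTRK3 and GFRA2 could be read and none was called, where 3.48% of genes were higher and 2.09% lower. Doxazosin against DMSO likewise gave 0 calls from 2 genes, where 1.06% were higher and 0.835% lower. In the combination against 13cRA 5 could be read, and ALK, ERBB2 and ERBB3 were called lower, at -1.25, -1.94 and -1.71, where 5.96% of genes were lower and 3.26% higher. All 3 reached 5 CPM through the 13cRA library alone, so they had to be lower in the combination. Without the top cells these differences were -0.07, -1.15 and -0.83, and among cells of 34000 to 120000 counts (38 combination and 203 13cRA cells) they were 0.54, 0.51 and 1.83. The combination against doxazosin gave 0 calls from 2 genes, where 3.68% were higher and 2.34% lower. These comparisons share libraries, the DMSO library in 3 of them and the combination library in 3.

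Shares of cells were read by a rule of size as well. Of 5 members with a count in at least 5% of thinned cells of either library, NTRK2 and ALK had a share at least 2 times higher in the combination than in DMSO, as did 2.62% of all genes so read. Both reached 5% through the libraries with 13cRA alone, so a higher share there was nearly fixed by the rule, and nothing is read from these counts. The same 2 did so in 13cRA against DMSO, where 2.26% of genes did, and 0 of 3 did so in doxazosin against DMSO, where 0.969% did. By expected share, ALK passed in the combination (1 of 4 members, 2.02% of genes), NTRK2 in 13cRA (1 of 4, 1.96%) and none in doxazosin (0 of 3, 0.371%). Of 5 genes with a count in at least 5% of thinned cells of some library, 1 (NTRK2) had a share in both 13cRA-treated libraries at least 2 times that in both others, a pattern held by 0.887% of 11606 genes. With expected shares it was 2 of 5 (NTRK2 and ALK), where 0.844% of genes held it. Here too both could be read through the 13cRA-treated libraries alone. Any of the 7 scarce receptors was found in 19.6% of combination cells (15.1 to 24.9%) and 19.7% of 13cRA cells (14.9 to 25.2%), against 10.6% of doxazosin cells (7.0 to 15.3%) and 13.4% of DMSO cells (9.92 to 17.6%). Cells with 2 or more of these 7 numbered 6 in the combination, 6 in 13cRA, 2 in doxazosin and 0 in DMSO.

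**Figure D4:**
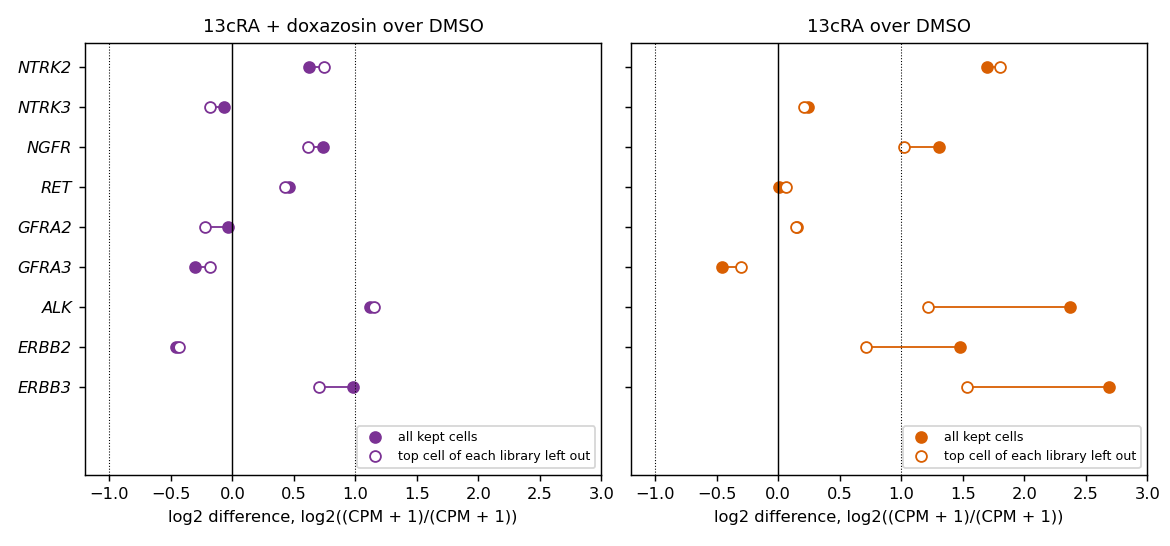
Log2 difference of each receptor gene from DMSO for the combination (left) and 13cRA (right), with all kept cells (filled) and with the cell of most counts in each library left out (open). Dotted lines mark differences of 1 either way; in 13cRA the values of ALK, ERBB2 and ERBB3 shorten without the top cells, to 1.22, 0.72 and 1.54, while NTRK2 stays at 1.70 to 1.80.

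Genes around the receptors were read from lists. Of 23 ligands, 2 could be read in 13cRA against DMSO. Of these 1 was called higher (BDNF, through the 13cRA library alone) and 0 lower, where 7.57% of all genes were higher and 3.74% lower. BDNF, the NTRK2 ligand, had 3.13 CPM in the combination, 9.85 in 13cRA, 2.71 in doxazosin and 1.20 in DMSO cells, with a count in 7.78, 7.63, 4.68 and 1.22% of thinned cells. Its difference of 13cRA from DMSO was 2.30, and 1 cell held 47.5% of the 13cRA counts. MDK, the heparin-binding factor midkine, which binds ALK among other receptors, was at 249 CPM in the combination, 274 in 13cRA, 189 in doxazosin and 242 in DMSO cells, and present in at least 96.4% of cells.

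Of the 18 related receptors and co-receptors 9 could be read in 13cRA against DMSO. SORL1 was the 1 called higher, where 7.57% of all genes were, and 0 were lower (3.74% of all genes). It reached 5 CPM in this comparison through the 13cRA library alone. The median difference was 0.51 (0.18 with TMM factors), against 0.0016 over all genes read. In the combination against doxazosin 8 could be read, with SORL1 called higher and EGFR lower, where 3.68% of all genes were higher and 2.34% lower. SORL1 reached 5 CPM there through the combination library alone, and EGFR through the doxazosin library alone. SORL1, a sorting receptor of the family to which sortilin belongs, was at 14.3 CPM in the combination, 11.5 in 13cRA, 1.02 in doxazosin and 2.99 in DMSO cells, with 62.0% of the combination counts in 1 cell. SORCS1, a relative of it, had 40.7, 37.5, 27.4 and 23.4 CPM in the combination, 13cRA, doxazosin and DMSO libraries.

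Adaptors and effectors downstream numbered 46, of which 40 could be read in 13cRA against DMSO, with 2 called higher (where 7.57% of all genes were) and 0 lower. The median was 0.12, which is -0.21 with TMM factors, where all genes stand at -0.34. In the combination against DMSO 2 of 38 were called higher (3.48% of all genes) and 0 lower, with a median of -0.17. In doxazosin against DMSO 0 of 38 were higher (1.06% of all genes) and 1 lower (0.835%), with a median of 0.0064. PIK3R1, the regulatory subunit of PI 3-kinase, had 126 CPM in the combination, 178 in 13cRA, 35.1 in doxazosin and 44.1 in DMSO cells. MAPK3, the kinase ERK1, had 36.3, 42.6, 23.0 and 17.1 CPM in those libraries. Of 27 feedback regulators 18 could be read in 13cRA against DMSO, with a median of 0.23 (-0.075 with TMM factors). Of the 18, 3 were called higher (7.57% of all genes) and 0 lower. DUSP6, 1 of these 3, reached 5 CPM through the 13cRA library alone, so it had to be higher there. DUSP6, a phosphatase that inactivates ERK, had 20.8 CPM in the combination, 14.9 in 13cRA, 2.27 in doxazosin and 1.85 in DMSO cells, and 1 cell held 55.5% of the combination counts and 46.0% of the 13cRA counts. PTPRF, a receptor tyrosine phosphatase, had 198 CPM in the combination, 244 in 13cRA, 109.8 in doxazosin and 116 in DMSO cells.

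Profiles over the 4 libraries were compared as log2(CPM + 1) centred on each gene's mean, among genes at 5 CPM or more in a library and in at least 10% of thinned cells of one. The nearest to GFRA2 were ACOT2, SUZ12P1 and KCMF1, and to NTRK3 ZFP90, LSS and KBTBD8, but 4911 and 4053 of 9715 candidate genes lay within a distance of 0.5. ALK was nearest to JUN, RRN3P1 and LRP1, at 0.31 to 0.34, with 16 genes within 0.5. ERBB2 was nearest to HMX1, COL6A1 and PCED1A, and ERBB3 to DPP6, JUN and C11orf96. In the 13cRA library the top cell held 67.8% of the ALK, 51.1% of the ERBB2 and 65.5% of the ERBB3 counts. Profiles without those cells were not compared. SUZ12P1 and RRN3P1 are pseudogenes, whose reads may come from their parent genes. JUN, an immediate early transcription factor, had 18.5 CPM in the combination, 44.4 in 13cRA, 8.04 in doxazosin and 6.27 in DMSO cells.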

How the data were processed

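Full-length single-cell RNA-seq was made from 4 CHP134 cultures on an ICELL8 nanowell chip, where wells with 1 live cell were chosen by imaging, per the labels' protocols. The authors deposited raw read counts per gene and cell for 1287 cells, not corrected by molecular identifiers. Per the submitters' processing notes, the tools named are STAR 2.7.8a, fastp 0.23.3, Seurat 4.3.0, featureCounts and bcl2fastq, and the builds are GRCh37 and GRCh38.p13. What each build was used for, the annotation release and the strand setting are not stated there. Gene symbols and positions came from GENCODE 29 on GRCh38, which left 214 IDs without a symbol, and the build behind the counts is unknown.

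Cells with at least 500 genes and at most 25% mitochondrial counts were kept, 1197 in all. No doublet caller was run, since wells were picked by imaging, and 0 cell names were shared between libraries. Counts were summed per treatment and scaled to CPM with exact Poisson 95% intervals, ratios with exact conditional intervals, and shares with exact Clopper-Pearson intervals after thinning to 34000 counts per cell. Share intervals cover only the sampling of cells. Differences are log2 with a pseudocount of 1 CPM. With 1 sample per treatment no test was possible. Python 3.11.15 with numpy 2.4.6, pandas 2.3.3 and scipy 1.17.1 was used, and R 4.3.3 with edgeR 4.0.16 (TMM factors) and DESeq2 1.42.0 (size factors) for alternative scalings of these counts. The scripts were tested on simulated data, whose changed genes stood at higher DMSO levels than most of the 9 receptors. Counts concentrated in 1 cell were not simulated. All 9 receptors are named. From each list up to 4 genes at 5 CPM or more with the largest difference between 13cRA and DMSO could be named, with GFRA1, EGFR and ERBB4 whatever their level. Some genes of these lists are not reported here. LTK, NCAM1, GFRA4 and ENPP2 were named after their values were seen. Members and lists were chosen with earlier results of these data known.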

Additional observations from a re-analysis of the deposited data

Results flagged for a closer look

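For 4 receptors the effect of a drug had opposite signs alone and on top of the other drug, with both ratios' counting intervals clear of 1, each from 1 library per treatment, and the difference between the effects was not tested. NTRK2 differed by -1.08 on the log2 scale when doxazosin was added to 13cRA, against 0.55 for doxazosin alone over DMSO. Without the top cell of each library the value for doxazosin alone was 0.20. RET differed by 0.45 when doxazosin was added to 13cRA, against -0.30 for doxazosin alone, from 66, 9, 6 and 19 counts in the combination, 13cRA, doxazosin and DMSO libraries. Without the top cells these values were 0.36 and -0.13. ALK differed by -1.25 when doxazosin was added to 13cRA and by 0.36 for doxazosin alone, but the first value was -0.07 without the top cells. ERBB2 differed by -0.61 when 13cRA was added to doxazosin and by 1.48 for 13cRA alone, which were -0.39 and 0.72 without the top cells. Among cells of 34000 to 120000 counts these signs did not hold. For doxazosin alone NTRK2 was then -0.37, RET -1.05 and ALK -0.95. With doxazosin added to 13cRA, RET was -0.60 and ALK 0.54. ERBB2 was -0.65 for 13cRA alone and 0.41 when 13cRA was added to doxazosin.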

How the results depend on the processing

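Each treatment is 1 library, so no setting replaces replication, and at 34 to 219 counts per library NTRK2, ALK and ERBB2 rest on few cells. Among cells of 34000 to 120000 counts (38 combination, 203 13cRA, 58 doxazosin and 141 DMSO cells) 17 of 45 member differences changed sign, among them 4 that had been called: ERBB2 in 13cRA against DMSO was -0.65, and in the combination against 13cRA ALK was 0.54, ERBB2 0.51 and ERBB3 1.83. In that window 1 member (ERBB3) was called higher and 1 (NTRK3) lower in the combination against DMSO, 1 higher (NTRK2) in 13cRA against DMSO, and 1 higher (ERBB3) in the combination against 13cRA and against doxazosin. NTRK2 and NTRK3 were called lower there in the combination against 13cRA, in place of ALK, ERBB2 and ERBB3. Leaving out the top cell of each gene left 0 members higher in 13cRA against DMSO and 0 lower in the combination against 13cRA. In 13cRA against DMSO the called members were NTRK2 and ERBB3 as a mean of cells, NTRK2 and ALK with thinned sums, and ALK and ERBB3 with a pseudocount of 5 CPM, and NTRK2 was added with no cell filter or without mitochondrial genes. With no minimum level 1 member (ALK) was higher in the combination against DMSO and 5 in 13cRA against DMSO. In the combination against 13cRA 1 (ERBB2) was lower with thinned sums or a pseudocount of 5 CPM. Calling members by an expected share at least 2 times higher in 13cRA than in DMSO, a rule chosen after seeing the data, gave 1 (NTRK2). The cause of these shifts was not tested.

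List medians moved as follows. For ligands, of which 1 or 2 were read, the combination against DMSO (0.042) became 0.019 with no minimum, 0.022 with TMM factors, -0.00871 with DESeq2 factors, 0.034 without mitochondrial genes, -0.024 as a mean of cells and 0.050 with no cell filter. Doxazosin against DMSO (-0.36) became -0.059 with no minimum and -0.30 to -0.35 otherwise, namely -0.34, -0.31, -0.35, -0.31 and -0.30. The combination against doxazosin (0.40) became 0.12 with no minimum and 0.36, 0.30, 0.38, 0.28 and 0.35. With no minimum 13cRA against DMSO became 0.15 and the combination against 13cRA -0.12. In the combination against 13cRA the adaptors (-0.22) became 0.15 with TMM and 0.056 with DESeq2 factors, and the feedback regulators (0.02) 0.33 and 0.26. Of the member differences 398 stayed within the counting interval of the value reported, 93 moved beyond it and 4 called ones changed sign. No paired analysis was possible because each treatment is 1 sample.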

Other observations

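ENPP2, the gene of the secreted enzyme autotaxin, was set beside the receptors after its values were seen. At 34000 counts per cell, 59 of 65 NTRK3-positive combination cells had an ENPP2 count, or 90.8% (81.0 to 96.5%), against 64.9% (57.9 to 71.4%) of NTRK3-negative combination cells. In 13cRA cells the shares were 78.9 and 60.4%, in doxazosin cells 5.41 and 3.11%, and in DMSO cells 7.0 and 1.75%. Within each of these libraries the intervals of the positive and negative cells overlapped. For GFRA2-positive and GFRA2-negative cells they were 71.6 and 69.2% in the combination, 67.8 and 56.1% in 13cRA, 4.04 and 2.7% in doxazosin and 3.72 and 1.69% in DMSO cells. For NTRK2 they were 52.9 and 72.3% in the combination and 75.0 and 63.9% in 13cRA cells. In doxazosin cells they were 0 and 3.88%, and in DMSO cells 14.3 and 3.12%. For ALK they were 60.0 and 71.8% in the combination and 53.8 and 65.3% in 13cRA cells. In doxazosin cells they were 0 and 3.96%, and in DMSO cells 0 and 3.43%. At most 17 cells of a library were NTRK2-positive and at most 15 ALK-positive. Cells of 1 library are not replicates, so no test was made.

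The share with an NTRK3 count in GFRA2-positive and GFRA2-negative cells was 25.2 and 19.2% in the combination and 24.6 and 18.2% in 13cRA. It was 31.8 and 29.7% in doxazosin and 33.1 and 18.6% in DMSO cells. The GFRA2-positive share was the higher in each library, but the intervals overlapped in each. GFRA2-negative cells numbered 52 in the combination, 66 in 13cRA, 37 in doxazosin and 59 in DMSO.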
